A study of Mus musculus with 12 samples.

Results

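The distal stretch of mouse chromosome 18 from 75 to 90 Mb (mm10) was examined for chromatin accessibility in knockout and wild-type splenic B cells, of the marginal zone (MZB) and of the follicle (FoB). Its members were the accessible regions of the authors' table whose start lies in that stretch, 594 of 94161 regions in all, and they include regions in or near Slc66a2, Atp9b, Nfatc1 and Tshz1. Levels are in rppm, the reads of a region scaled to a fixed total of reads in regions per library. Of the members, 551 reached 1 rppm or more in 3 or more libraries and were tested. The other 43 members did not exceed 3.29 rppm in any library, with a median of their mean levels of 0.556 rppm, and are not described further. The stretch was chosen by the knockout against wild-type calls of both cell types, which gather in it. The knockout against wild-type values below are therefore a description and carry no p-value, whereas the MZB against FoB comparisons were tested.

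The assay was ATAC-seq, where a transposase cuts DNA that is not covered by nucleosomes, so that reads pile up at promoters, enhancers and other open sites. LSD1, the product of Kdm1a, demethylates lysines of histone H3 and works with corepressor complexes at enhancers and promoters. Marginal zone B cells lie at the edge of the splenic follicle and answer blood-borne antigens quickly, while follicular B cells recirculate and enter germinal centres with T cell help. The best known lymphocyte gene of the stretch is Nfatc1, which encodes a transcription factor that calcineurin dephosphorylates after antigen receptor signalling and that then enters the nucleus.

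There were 4 groups of 3 libraries, each from 10000 cells: LSD1 knockout MZB, wild-type MZB, LSD1 knockout FoB and wild-type FoB. All came from unstimulated splenic cells of female C57BL/6J mice, and no other agent or allele is given for any group. Marginal zone cells were sorted as CD23-, CD21hi and CD1d+, and follicular cells as CD23+, CD21mid and CD1d-. Both gates took B220+ cells that were CD93- and GL7-, and negative for CD11b, F4/80 and Thy1.1. The Cre line, the cells it acts in, the part of Kdm1a that was deleted and whether each library came from its own animal are given in none of the sources used here, and the spread between libraries may be in part technical. Libraries held 3169966 reads (knockout MZB 2) to 10375328 reads (wild-type FoB 2) over all regions, and 3 reads corresponded to 0.289 to 0.946 rppm. In bulk libraries, more cells with an open site and a more open site per cell cannot be told apart. The sorted cells differed at their marker genes. Of 116 regions at 7 MZB marker genes, 57 were higher and 9 lower in wild-type MZB than in wild-type FoB, beside 24.2% and 11.4% of all tested regions. Of 45 regions at 4 FoB marker genes, 1 was higher and 21 were lower. The MZB genes did not all go the same way. The regions within 1 kb of Cd9 summed to 192.3 ± 12.9 rppm in wild-type MZB and 74.3 ± 6.76 rppm in wild-type FoB, whereas those of Cr2, which encodes CD21, summed to 72.2 ± 2.97 and 93.0 ± 6.45 rppm, and the 1 region of Cd1d1 lay at 43.0 ± 2.95 and 41.0 ± 5.26 rppm (SD, n = 3 each). The only tested region at Kdm1a lay at 25.1 ± 5.55 rppm in knockout and 23.0 ± 6.05 rppm in wild-type MZB, and at 20.6 ± 0.061 and 22.8 ± 1.92 rppm in knockout and wild-type FoB (SD, n = 3 each), and it checks nothing about the genotype labels.

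Between knockout and wild-type MZB, 22 regions of the stretch were called higher and 19 lower by limma, which is 3.99% and 3.45% of the 551 tested, beside 0.502% and 0.275% of all tested regions. In FoB it called 17 higher and 7 lower in the knockout, 3.09% and 1.27%, beside 0.32% and 0.219% of all tested regions. A call means an adjusted p under 0.05 over all 89782 tested regions. Since these contrasts chose the stretch, nothing is read from the gap to the background. The change was at least 2-fold at 28 of the 41 regions called in MZB and at 17 of the 24 called in FoB. At all 41 and all 24 called regions the 3 knockout libraries did not overlap the 3 wild-type libraries. A call itself favours large changes and groups that do not overlap, so nothing is read from these counts either. Over all 551 regions the libraries did not overlap at 61 regions that were higher in knockout MZB (11.1%, background 8.13%) and 88 that were lower (16%, background 9.55%), and at 64 (11.6%, background 7.18%) and 73 (13.2%, background 7.51%) in FoB. The median log2 fold change of the tested members was -0.09 in MZB and -0.05 in FoB, beside -0.02 in each over all tested regions.

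No call lay in the part from 75 to 77 Mb. Of the 48 regions called in either cell type, 27 were higher and 21 lower in the knockout, and 17 were called in both cell types, each in the same direction (41.5% of the MZB calls and 70.8% of the FoB calls). The MZB and FoB differences share no library, but both chose the stretch and both rest on a shared estimate of spread. Whether MZB and FoB libraries came from the same animals is not given, so the shared calls are a description. Of the 109 tested regions from 75 to 77 Mb 0 were called, beside 41 of 376 from 77 to 85 Mb and 7 of 66 from 85 Mb on, and the called starts ran from 77794293 to 88938687. All 7 calls beyond 85 Mb were lower in knockout MZB, and 0 of them was called in FoB. The 48 regions belonged to 19 genes: 7 to Setbp1, 5 each to Mbp, Zfp516, Tshz1 and the predicted protein-coding gene Gm17266, 4 to Cbln2, 3 to Nfatc1, 2 each to Neto1 and Zfp236, and 1 to each of the other 10. All 5 at Gm17266 were higher and all 4 at Cbln2 lower in the knockout.

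The counts moved with single libraries. The 22 higher MZB regions became 14 without wild-type MZB 3. The 19 lower ones became 10 without knockout MZB 1 and 7 without wild-type MZB 1 or wild-type MZB 3. In FoB, the 17 higher regions became 11 and the 7 lower ones 2 without knockout FoB 1, and the lower ones 4 without wild-type FoB 3. DESeq2 on the recovered reads called 9 higher and 5 lower in knockout MZB and 9 higher and 2 lower in knockout FoB. Of the called regions, 16 of 41 in MZB and 13 of 24 in FoB kept their call whichever library was left out.

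**Figure D1:**
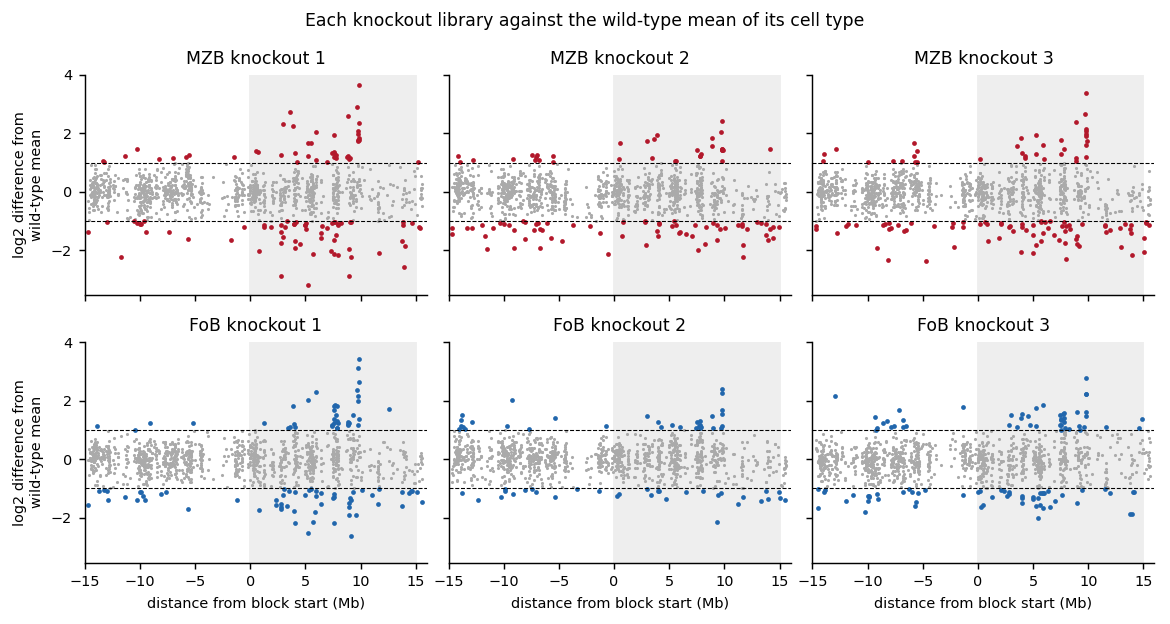
Each dot is a tested region of chromosome 18, placed by its distance in Mb from the start of the stretch (x axis, stretch shaded) and by the log2 difference of that knockout library from the mean of the 3 wild-type libraries of its cell type (y axis). Regions beyond 2-fold (dashed lines) are coloured and make up 15.6%, 11.4% and 13.8% of the shaded regions in knockout MZB 1, 2 and 3 and 14.3%, 6.9% and 12.7% in knockout FoB 1, 2 and 3.

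Taken library by library, knockout 1 departed most from wild type and knockout 2 least, in both cell types. For each library the share of the 551 regions that lay at least 2-fold from the wild-type mean was counted, with wild-type libraries set against the mean of the other two. It was 15.6% in knockout MZB 1, 11.4% in knockout MZB 2 and 13.8% in knockout MZB 3, against 2%, 3.99% and 3.63% in wild-type MZB 1, 2 and 3. In FoB it was 14.3% in knockout 1, 6.9% in knockout 2 and 12.7% in knockout 3, against 7.44%, 3.81% and 5.08% in wild-type 1, 2 and 3. Outside the stretch the same shares were 4.67%, 7.6% and 6.99% in knockout MZB and 4.23%, 4.11% and 4.77% in wild-type MZB, and 4.09%, 3.93% and 5.57% in knockout FoB and 7.01%, 2.19% and 3.12% in wild-type FoB. By this measure knockout FoB 2 lay below wild-type FoB 1.

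Among the 258 members with a mean of at least 5 rppm the order of the knockout libraries was the same. There the share was 11.2%, 4.26% and 8.53% in knockout MZB 1, 2 and 3, against 0.388%, 0.775% and 0% in wild-type MZB. It was 10.9%, 3.88% and 6.59% in knockout FoB 1, 2 and 3, against 1.55%, 2.71% and 1.94% in wild-type FoB. Regions of that level elsewhere in the genome were beyond 2-fold in 0.699% to 0.92% of cases in knockout MZB and 0.711% to 1.26% in knockout FoB. In numbers of regions, knockout MZB 1 had 29 and knockout FoB 1 had 28 such members, whereas knockout MZB 2 had 11 and knockout FoB 2 had 10.

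Along the chromosome, the median over the 6 knockout libraries of the share beyond 2-fold was 2.56% from 70 to 75 Mb, against a wild-type median of 5.13% (117 regions). From 75 to 80 Mb it was 9.07% in knockout and 3.1% in wild-type libraries (226 regions), from 80 to 85 Mb 16.2% and 4.25% (259 regions), and from 85 to 90 Mb 14.4% and 6.82% (66 regions). From 85 to 90 Mb the order of the knockout libraries was another one in MZB. There the share was 10.6%, 25.8% and 16.7% in knockout MZB 1, 2 and 3, against 6.06%, 7.58% and 10.6% in wild-type MZB. In FoB the order was kept, at 15.2%, 9.09% and 13.6% in knockout 1, 2 and 3, against 18.2%, 6.06% and 6.06% in wild type. Wild-type FoB 1 thus lay above all knockout FoB libraries there. In the windows of 1 Mb from 75 and 76 Mb the knockout medians were 4.27% and 3.7%, against 2.44% and 1.85% in wild type. From 77 Mb the knockout median was 12.8%, against 1.28% in wild type (39 regions). In the window from 82 Mb, with 78 regions at Mbp, Zfp236 and Zfp516, knockout MZB 1 had 23.1% of its regions beyond 2-fold, knockout MZB 2 had 8.97% and knockout MZB 3 had 12.8%, against at most 1.28% in wild-type MZB. In the same window knockout FoB 1, 2 and 3 had 21.8%, 8.97% and 16.7%, against 7.69%, 2.56% and 6.41% in wild-type FoB.

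The same order held at the called regions. Counting at each of the 48 which knockout library lay farthest from and which nearest to the wild-type side, knockout 1 was farthest at 33 regions in MZB and 35 in FoB, and knockout 2 was nearest at 36 and 37. Knockout 1 was farthest and knockout 2 nearest at the same region in 29 of 48 (60.4%) in MZB and 31 of 48 (64.6%) in FoB. At the 994 regions called elsewhere in the genome this order was found in 15.6% in MZB and 17.1% in FoB. In the FoB libraries it was found at 27 of the 41 MZB calls (65.9%), and in the MZB libraries at 20 of the 24 FoB calls (83.3%). These lists share 17 regions and the calls of both cell types chose the stretch, so the counts are a description. The order was common from 77 to 85 Mb, at 27 of 41 regions in MZB and 30 of 41 in FoB, and was found at 2 and 1 of the 7 regions beyond 85 Mb. Library 1 was the deepest of the knockout MZB libraries with 4287593 reads, against 3169966 and 3383716 in libraries 2 and 3. The knockout FoB libraries 1, 2 and 3 held 4832426, 4854978 and 3934641 reads. The part of depth in the order was not tested.

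**Figure D2:**
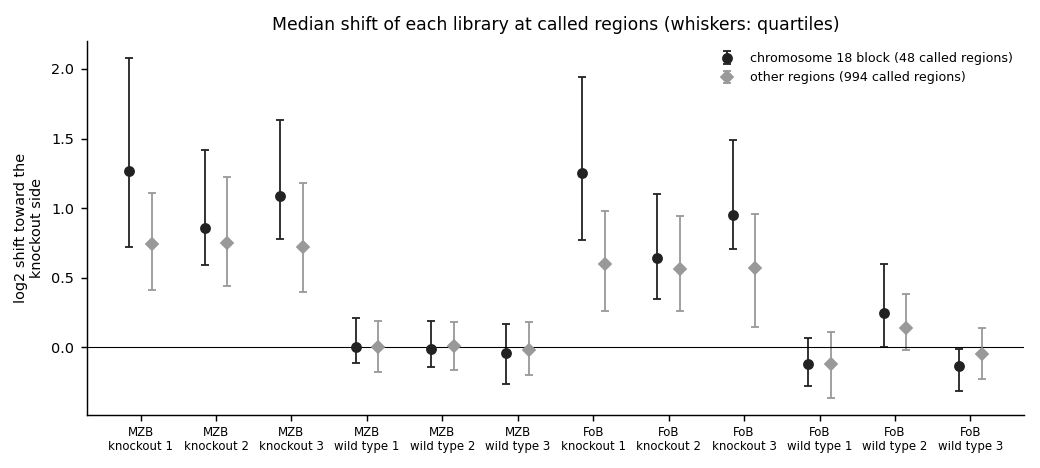
Median log2 shift toward the knockout side (y axis, a positive value meaning a shift in the direction in which the region was called) for each of the 12 libraries (x axis), with whiskers at the quartiles over regions. Black circles are the 48 called regions of the stretch and grey diamonds the 994 called regions elsewhere: the knockout 1 circles lie highest, at 1.27 and 1.25, and wild-type FoB 2, at 0.25, lies above the other wild-type libraries.

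In size, the median shift of the 48 regions toward the knockout side was 1.27, 0.86 and 1.09 on the log2 scale in knockout MZB 1, 2 and 3, against 0.00, -0.01 and -0.04 in wild-type MZB. It was 1.25, 0.64 and 0.95 in knockout FoB 1, 2 and 3, against -0.12, 0.25 and -0.13 in wild-type FoB. Elsewhere in the genome the 3 knockout libraries of a cell type differed little in this measure, at 0.74, 0.75 and 0.72 in MZB and 0.60, 0.56 and 0.57 in FoB. Wild-type FoB 2 was shifted toward the knockout side at 36 of the 48 regions. Elsewhere in the genome it was so at 708 of the 994 called regions, with a median shift of 0.14, so this is not particular to the stretch. It was the wild-type FoB library nearest to the knockout side at 30 of 48, and at 21 of the 27 higher ones. It is also the deepest library of the series, and the part of depth in this shift was not tested.

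Read as levels, the 27 higher regions had a median of 19.4, 12.3 and 17.1 rppm in knockout MZB 1, 2 and 3, against 7.56, 6.38 and 6.22 rppm in wild-type MZB. In FoB the medians were 17.4, 11.3 and 12.4 rppm in knockout 1, 2 and 3, against 4.11, 6.65 and 4.78 rppm in wild type. At the 21 lower regions the medians were 5.36, 8.83 and 5.91 rppm in knockout MZB, against 17.5, 15.2 and 19.3 rppm in wild-type MZB. They were 4.97, 7 and 4.32 rppm in knockout FoB, against 9.04, 9.83 and 9.31 rppm in wild-type FoB. Knockout 2 thus lay between the other knockout libraries and wild type at gains and at losses alike.

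**Figure D3:**
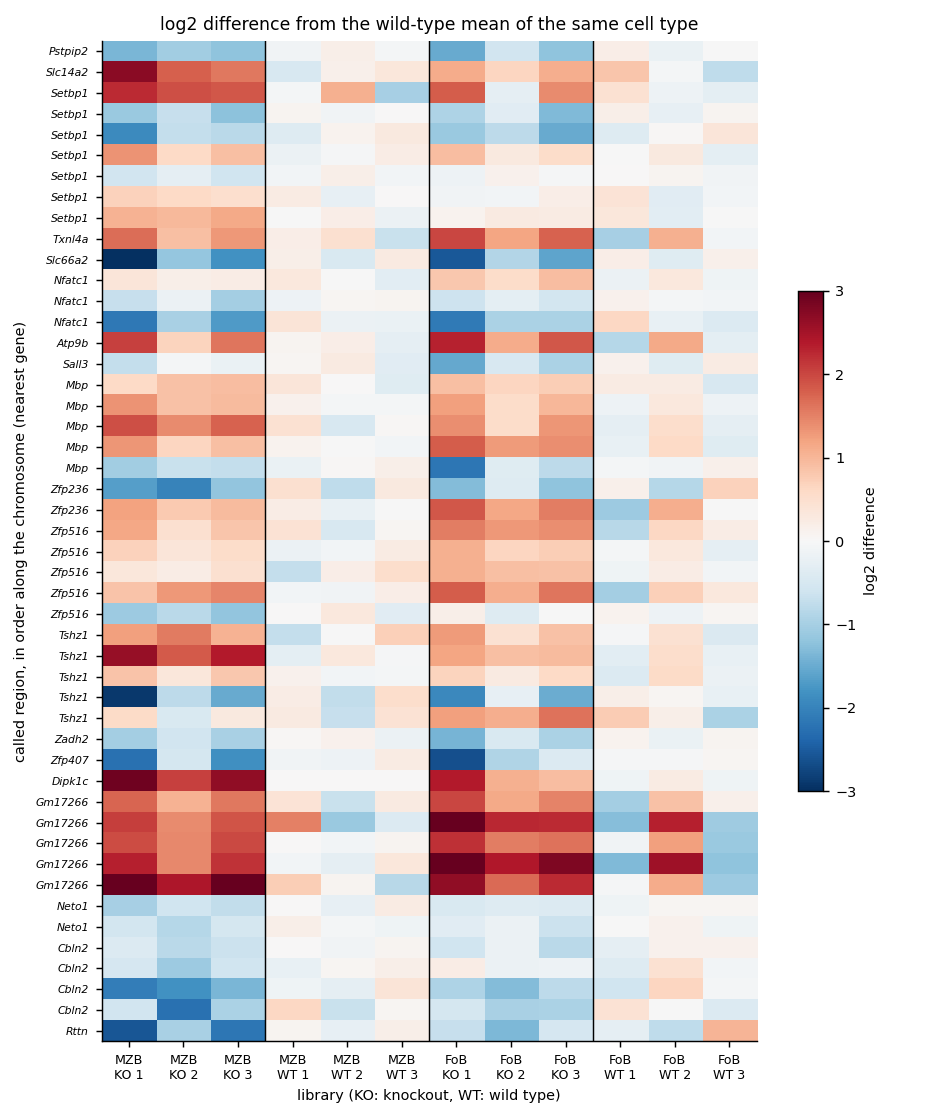
Log2 difference of each library (columns) from the wild-type mean of its cell type, for the 48 called regions in order along the chromosome (rows, named by the gene that holds or lies nearest to the region). Wild-type libraries are set against the mean of the other two, the colours end at 3 in both directions, and the knockout 2 columns are paler than the knockout 1 columns in both cell types.

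Across cell types, the departures of the knockout libraries from wild type were correlated, and the called regions that chose the stretch are among the members. The Pearson correlation over the 551 regions, between the departure of a knockout MZB library from the wild-type MZB mean and that of a knockout FoB library from the wild-type FoB mean, was 0.608 between the libraries numbered 1, 0.422 between those numbered 2 and 0.431 between those numbered 3. Between libraries of different number it ran from 0.324 (MZB 2 with FoB 3) to 0.531 (MZB 3 with FoB 1). Over the 503 tested members that were not called in either cell type the values were lower, at 0.388, 0.277 and 0.205 between libraries numbered 1, 2 and 3, and from 0.099 (MZB 2 with FoB 3) to 0.296 (MZB 3 with FoB 1) between libraries of different number. Over the 89231 regions outside the stretch the 9 values ran from 0.020 to 0.207. The libraries of a pair share no wild-type library, but the 9 values rest on the same 2 wild-type means, and neighbouring regions are not independent of each other.

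With each knockout library set instead against the mean of its own group, which takes out what the 3 knockout libraries share, r at the 48 called regions was 0.683 between MZB 1 and FoB 1 and 0.548 between MZB 2 and FoB 2, but -0.334 between MZB 3 and FoB 3. It was -0.634 between MZB 1 and FoB 2 and -0.671 between MZB 2 and FoB 1, and from -0.146 to 0.279 for the other 4 pairs of different number. At the 503 tested members that were not called, r was 0.150 between the libraries numbered 1, 0.206 between those numbered 2 and 0.022 between those numbered 3, and from -0.243 to 0.094 between libraries of different number. Departures from a group mean sum to 0, so these values depend on each other.

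**Figure D4:**
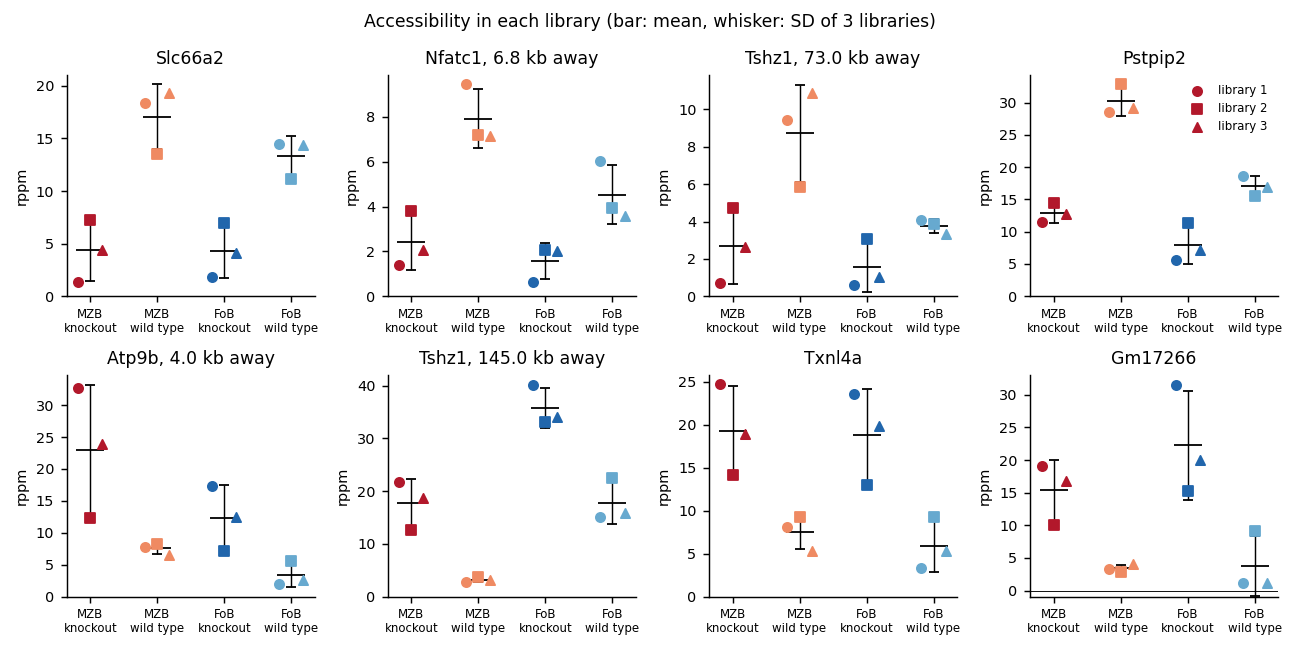
Accessibility (y axis, rppm) in each library at 8 called regions, named by gene and, where the region lies outside it, by its distance from it. Circles, squares and triangles are libraries 1, 2 and 3, the bar is the mean and the whisker the SD (n = 3). In each knockout group drawn, the square lies nearest to the wild-type mean and the circle farthest from it.

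Slc66a2 encodes a PQ loop membrane protein, and 1 of its 3 tested regions was called. This region, within the gene on chromosome 18 from 80260444 to 80260771, had 1.399, 7.26 and 4.43 rppm in knockout MZB 1, 2 and 3, against 18.4, 13.6 and 19.3 rppm in wild-type MZB. In FoB it had 1.86, 7.003 and 4.07 rppm in the knockout, against 14.5, 11.2 and 14.3 rppm in wild type. All knockout libraries lay below all wild-type libraries, with knockout 1 lowest and knockout 2 highest of the knockouts in both cell types. The log2 fold change was -2.06 ± 0.32 in MZB and -1.67 ± 0.32 in FoB (SE). The FoB call was lost without knockout FoB 1, where the log2 fold change was -1.23.

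Nfatc1 had 3 of 30 tested regions called, of which 2 were lower and 1 higher. A region 6820 bp from the gene (80719891 to 80720225) had 1.399, 3.79 and 2.07 rppm in knockout MZB 1, 2 and 3, against 9.45, 7.18 and 7.15 rppm in wild-type MZB. In FoB it had 0.621, 2.06 and 2.03 rppm in the knockout, against 6.02, 3.95 and 3.58 rppm in wild type. It was lowest in knockout 1 of both cell types, with log2 fold changes of -1.60 ± 0.33 in MZB and -1.34 ± 0.33 in FoB. The MZB call was lost without knockout MZB 1 (log2 fold change -1.33) or wild-type MZB 1 (-1.48), and the FoB call without knockout FoB 1 (-0.95) or any wild-type FoB library (-1.14 to -1.48). Closer to the gene, 1303 bp from it (80714374 to 80715159), a stronger region had 17.03, 24.9 and 13.6 rppm in knockout MZB, against 26.2, 28.7 and 29.2 rppm in wild-type MZB, and was called in MZB and not in FoB (log2 fold changes -0.63 ± 0.15 and -0.50 ± 0.15). Its call was kept without knockout MZB 2 and lost without any other MZB library (-0.43 to -0.68).

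Another region, 43966 bp from Nfatc1 (80561415 to 80562239), was higher in knockout FoB, with 9.73, 8.03 and 10.7 rppm, against 4.93, 6.27 and 5.01 rppm in wild-type FoB (log2 fold change 0.76 ± 0.17). In MZB it had 24.96, 21.8 and 22.5 rppm in the knockout, against 22.4, 19.1 and 16.5 rppm in wild type, and the groups overlapped. The FoB call was lost without knockout FoB 1 or 3 or wild-type FoB 1 or 3 (0.67 to 0.73). The remaining 27 tested regions of Nfatc1 were not called in either cell type.

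Atp9b encodes a P-type ATPase of the flippase family at the Golgi, and 1 of its 13 tested regions was called. The region, 3966 bp from the gene (80938047 to 80938635), had 32.7, 12.3 and 23.9 rppm in knockout MZB 1, 2 and 3, against 7.83, 8.24 and 6.53 rppm in wild-type MZB. In FoB it had 17.4, 7.21 and 12.5 rppm in the knockout, against 1.92, 5.59 and 2.63 rppm in wild type. Knockout 1 was highest and knockout 2 lowest of the knockouts in both cell types, and wild-type FoB 2 lay closest to the knockouts. The log2 fold change was 1.45 ± 0.28 in MZB and 1.76 ± 0.28 in FoB, and the MZB call was lost without knockout MZB 1 (1.14) or wild-type MZB 3 (1.35).

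Tshz1 encodes a zinc finger transcription factor of the teashirt family, known for its part in development. Of its 27 regions 19 were tested and 5 called, 4 higher and 1 lower. The region 144994 bp from the gene (83866073 to 83866633) had 21.7, 12.6 and 18.6 rppm in knockout MZB 1, 2 and 3, against 2.699, 3.72 and 3.11 rppm in wild-type MZB. In FoB, where the site was already open, it had 40.2, 33.2 and 34.1 rppm in the knockout, against 15.1, 22.5 and 15.8 rppm in wild type. Its log2 fold change was 2.28 ± 0.18 in MZB and 1.01 ± 0.18 in FoB. The difference between these was 1.27 and was not called (limma adjusted p = 0.158), although it was the smallest p of the stretch in that test.

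Beside it, 140413 bp from Tshz1 (83870618 to 83871214), a second region had 21.9, 15.1 and 20.98 rppm in knockout MZB, against 12.7, 11.4 and 11.5 rppm in wild-type MZB (log2 fold change 0.67 ± 0.16), a call that was kept without knockout MZB 2 and lost without any other MZB library (0.57 to 0.71). Nearer the gene, 73036 bp from it (83938209 to 83938591), accessibility was lower in knockout MZB, with 0.6997, 4.73 and 2.66 rppm, against 9.45, 5.85 and 10.9 rppm in wild type. In FoB that region had 0.621, 3.09 and 1.02 rppm in the knockout, against 4.11, 3.86 and 3.34 rppm in wild type, without a call (log2 fold changes -1.73 ± 0.39 and -1.22 ± 0.39). The MZB call was lost without knockout MZB 1 (-1.14) or wild-type MZB 1 or 3 (-1.65 and -1.55). The region 27306 bp from Tshz1 was called higher in FoB and not in MZB, at 3.93, 3.502 and 5.34 rppm in the knockout, against 2.19, 1.54 and 0.716 rppm in wild type, and was lost without any knockout library or wild-type FoB 3 (1.00 to 1.43).

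Gm17266, a predicted protein-coding gene, had 5 of 8 tested regions called higher in both cell types, among them the largest gain in FoB. This region, from 84818164 to 84818885, had 19.1, 10.1 and 16.9 rppm in knockout MZB 1, 2 and 3, against 3.24, 2.92 and 4.04 rppm in wild-type MZB. In FoB it had 31.5, 15.2 and 20.1 rppm in the knockout, against 1.095, 9.06 and 1.19 rppm in wild type. Wild-type FoB 2 stood between the other wild-type FoB libraries and the knockouts, and without it the FoB log2 fold change was 3.73 rather than 2.88 ± 0.36.

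The neighbouring region from 84804330 to 84804734 showed the same picture, with 20.1, 10.9 and 10.7 rppm in knockout FoB, against 0.821, 6.46 and 0.955 rppm in wild-type FoB (log2 fold change 2.54 ± 0.41, or 3.31 without wild-type FoB 2). In MZB it had 6.76, 4.101 and 5.91 rppm in the knockout, against 2.97, 0.532 and 0.933 rppm in wild type, a call kept only without wild-type MZB 1 (otherwise 1.42 to 1.98). The region from 84807630 to 84808166 had 32.9, 22.7 and 33.4 rppm in knockout MZB, against 8.097, 7.71 and 8.396 rppm in wild-type MZB, and 39.7, 25.3 and 26.9 rppm in knockout FoB, against 7.94, 15.1 and 4.78 rppm in wild-type FoB. At the region from 84799035 to 84799687 the log2 fold change was 1.46 ± 0.24 in MZB and 1.54 ± 0.24 in FoB. At the region from 84825751 to 84826117, 73 reads in knockout MZB stood against 3 in wild-type MZB (ratio 24, 95% counting interval 7.89 to 119).

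Other gains lay at genes of varied function. Txnl4a, which encodes a spliceosome protein, had 24.7, 14.2 and 18.9 rppm in knockout MZB 1, 2 and 3, against 8.097, 9.31 and 5.29 rppm in wild-type MZB, at a region within the gene (80224345 to 80225080). In FoB it had 23.6, 12.98 and 19.8 rppm in the knockout, against 3.29, 9.25 and 5.25 rppm in wild type (log2 fold changes 1.29 ± 0.24 and 1.65 ± 0.24), and the MZB call was lost without wild-type MZB 3 (1.07). Mbp encodes myelin basic protein and, from a longer transcription unit, Golli proteins that lymphocytes also make, and 5 of its 25 tested regions were called, 4 higher and 1 lower. Of the higher ones, the region within Mbp from 82558954 to 82559668 had 45.5, 32.8 and 34.3 rppm in knockout MZB, against 18.6, 17.01 and 17.1 rppm in wild-type MZB, and 46.6, 29.04 and 39.7 rppm in knockout FoB, against 18.1, 22.7 and 18.2 rppm in wild-type FoB. This Mbp region lies outside the rule for named regions and was picked after its values were seen, as the strongest of the 4.

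Gains were also called at Zfp236, a zinc finger gene, and at regions of Setbp1 and Slc14a2. The region 11342 bp from Zfp236 had 33.5, 20.4 and 26.7 rppm in knockout FoB, against 5.202, 15.04 and 8.83 rppm in wild-type FoB, and 36.4, 27.5 and 30.4 rppm in knockout MZB, against 17.3, 14.1 and 15.6 rppm in wild-type MZB. Its MZB call was lost without knockout MZB 1 or wild-type MZB 2 or 3 (0.87 to 0.98). Within Slc14a2, a urea transporter gene, 5.83, 2.84 and 2.36 rppm in knockout MZB stood against 0.2699, 0.532 and 0.622 rppm in wild-type MZB, a call lost without knockout MZB 1 (1.68) or wild-type MZB 1 (1.87). Within Setbp1, whose product binds the SET oncoprotein, a weak region had 3.27, 2.52 and 2.36 rppm in knockout MZB, against 0.2699, 0.798 and 0 rppm in wild-type MZB, a call kept only without wild-type MZB 2 (otherwise 1.68 to 2.09). At a region 10293 bp from Dipk1c, 28 reads in knockout MZB stood against 0 in wild-type MZB, at least 9.2-fold higher against 3 reads over the group. In FoB there were 16 reads in the knockout and 1 in wild type at that region (ratio 21.4, 95% counting interval 3.32 to 897).

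Among the losses, Pstpip2, whose product is an F-BAR protein that restrains inflammation in myeloid cells, had 11.4, 14.5 and 12.7 rppm in knockout MZB 1, 2 and 3, against 28.6, 32.96 and 29.2 rppm in wild-type MZB at a region within the gene (77794293 to 77795188). In FoB it had 5.59, 11.3 and 7.12 rppm in the knockout, against 18.6, 15.5 and 16.95 rppm in wild type, and the log2 fold change was -1.20 ± 0.17 in MZB and -1.09 ± 0.17 in FoB. It is the first called region of the stretch and kept both calls in every fit without 1 of the compared libraries. A region 5547 bp from Zadh2, which encodes a prostaglandin reductase, had 20.8, 28.7 and 21.6 rppm in knockout MZB, against 43.5, 45.5 and 39.5 rppm in wild-type MZB, and 18.2, 35.6 and 24.9 rppm in knockout FoB, against 51.2, 44.7 and 51.1 rppm in wild-type FoB. It too kept both calls in each of these fits.

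A region within Setbp1 (78965895 to 78966592) had 11.2, 15.1 and 10.3 rppm in knockout MZB, against 25.9, 23.7 and 24.9 rppm in wild-type MZB. Its FoB levels were 5.79, 9.06 and 4.32 rppm in the knockout, against 12.6, 10.2 and 11.9 rppm in wild type, and that call was kept only without wild-type FoB 2 or knockout FoB 2 (otherwise -0.63 to -0.84). A region 413067 bp from Sall3, a spalt family transcription factor gene, had 10.97, 23.5 and 16.8 rppm in knockout FoB, against 34.8, 27.7 and 37.01 rppm in wild-type FoB, a call lost without knockout FoB 1 (-0.71). Within Mbp, the lower region (82567649 to 82568049) had 3.104, 12.2 and 8.895 rppm in knockout FoB, against 15.3, 15.04 and 16.95 rppm in wild-type FoB. Knockout FoB 2 lay close to wild type there, and the call was lost without knockout FoB 1 (-0.58) or wild-type FoB 1 or 3 (-1.13 and -1.06).

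In MZB, a region 47935 bp from Zfp407, a zinc finger gene, had 3.03, 11.04 and 4.14 rppm in knockout 1, 2 and 3, against 15.4, 15.2 and 18.4 rppm in wild type, and its call was kept only without knockout MZB 2 (otherwise -1.19 to -1.59). A region within Zfp236 (82635375 to 82635775) had 0.933, 0.631 and 1.48 rppm in knockout MZB, against 5.13, 2.66 and 4.67 rppm in wild-type MZB, a call lost without knockout MZB 1 or 2 or wild-type MZB 1 or 3 (-1.42 to -1.59). Among the uncalled regions where the knockout MZB libraries spread widely was a region of Mbp (82568825 to 82569140), with 1.17, 5.36 and 4.14 rppm in knockout MZB, against 7.02, 6.65 and 6.84 rppm in wild-type MZB. There knockout 1 lay farthest below wild type and knockout 2 nearest to it. Another, within Tshz1 (84085075 to 84085235), had 3.73, 4.101 and 9.75 rppm in knockout MZB 1, 2 and 3, against 9.45, 8.51 and 6.84 rppm in wild-type MZB, and there knockout 3 lay above all wild-type libraries.

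In FoB, 3 regions that were called in neither cell type spread widely among the knockout libraries. Within Ctdp1 (80424945 to 80425313) the levels were 1.45, 4.53 and 0.254 rppm in knockout FoB 1, 2 and 3, against 3.56, 3.08 and 1.43 rppm in wild-type FoB, with knockout 3 lowest and knockout 2 above all wild-type libraries. At a region 18126 bp from Ctdp1 they were 1.24, 4.33 and 2.796 rppm in knockout FoB, against 3.01, 2.99 and 2.63 rppm in wild-type FoB, and within Mbp (82479497 to 82479704) they were 2.07, 6.797 and 4.83 rppm in knockout FoB, against 7.39, 5.49 and 5.25 rppm in wild-type FoB. At both, knockout 1 was lowest and knockout 2 highest of the knockouts, and the groups overlapped. The region 47935 bp from Zfp407, called in MZB and not in FoB, spread widely too, at 0.207, 1.85 and 2.796 rppm in knockout FoB. Wild-type FoB had 3.83, 3.86 and 4.06 rppm there, and knockout 3 lay nearest to it.

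Beyond 85 Mb the order of the knockout libraries varied. The last called region, 32510 bp from Rttn, which encodes a centriole protein, had 2.57, 8.83 and 3.55 rppm in knockout MZB 1, 2 and 3, against 18.4, 15.7 and 19.3 rppm in wild-type MZB, with knockout 2 again nearest to wild type. At Cbln2, which encodes a secreted synapse organiser, the region within the gene (86711263 to 86711783) had 5.13, 1.26 and 3.84 rppm in knockout MZB, against 10.5, 5.58 and 8.09 rppm in wild-type MZB, with knockout 2 lowest. The call was lost without knockout MZB 2 (-0.75) or wild-type MZB 1 or 3 (-1.04 and -1.22). A region 61538 bp from Cbln2 had 0.6997, 0.946 and 1.48 rppm in knockout MZB, against 4.32, 3.99 and 5.598 rppm in wild-type MZB, where the knockout libraries lay close together (log2 fold change -1.75 ± 0.37). Its call was lost without knockout MZB 1 or 2 or wild-type MZB 3 (-1.59 to -1.72). Neto1, which encodes an auxiliary subunit of glutamate receptors, had 2 lower regions among 16 tested.

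By gene group, the calls spread over most groups of the stretch. Lymphocyte signalling genes (Nfatc1, Cd226, Socs6, Pstpip2, Mbp and Pias2, of which 5 of 6 have a region here) had 4 of 83 tested regions higher and 3 lower in knockout MZB, and 3 higher and 3 lower in knockout FoB, with median log2 fold changes of -0.12 and -0.10. Over all tested regions 0.502% were higher and 0.275% lower in knockout MZB and 0.32% and 0.219% in knockout FoB, and over the stretch 3.99% and 3.45%, and 3.09% and 1.27%. Zinc finger and other nuclear factor genes (Tshz1, Zfp516, Zfp407, Zfp236, Sall3, Zbtb7c, Adnp2 and Setbp1) had 9 of 174 higher and 7 lower in MZB and 7 higher and 2 lower in FoB, with medians of -0.03 and 0.01. TGF-beta signalling genes, Smad2, its inhibitor Smad7 and the corepressor Skor2, had 0 of 29 regions called in either cell type, with medians of -0.16 and -0.09. Of 23 regions at genes of mitochondria and metabolism (7 of 9 listed genes have a region here) 1 was lower in each cell type, and of 76 at genes of RNA and cell division 1 was higher and 1 lower in MZB and 1 higher in FoB. Membrane transport genes had 2 of 37 higher and 1 lower in MZB and 1 each in FoB. The median over all tested regions was -0.02 in both cell types. As these contrasts chose the stretch, nothing is read from the counts of the groups. Among 13 genes of the NFAT pathway on other chromosomes, such as Nfatc2, Ppp3ca and Orai1, 0 of 181 regions were called in MZB and 2 were higher and 1 lower in FoB.

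The difference between MZB and FoB was not used directly to choose the stretch and was tested within each genotype. It shares group means with the knockout contrasts. At regions that also had a knockout call, its p-values are therefore not independent of that call. This holds for the Atp9b and Rttn regions below, and for the regions 43966 bp from Nfatc1 and 144994 bp and 140413 bp from Tshz1. It holds too for the Slc66a2 and nearest Nfatc1 regions and for the Gm17266 region from 84825751 to 84826117. In the knockout, 174 of the 551 regions were higher and 25 lower in MZB than in FoB (31.6% and 4.54%, beside 23.2% and 9.47% of all tested regions). In wild type, 199 were higher and 31 lower (36.1% and 5.63%, beside 24.2% and 11.4%). This split depends on the scaling: the median log2 difference over all tested regions was 0.14 in the knockout and 0.18 in wild type, and with libraries centred on their medians 102 were higher and 112 lower in the knockout and 121 higher and 95 lower in wild type. With edgeR's scaling, 140 were higher and 52 lower in the knockout and 164 higher and 60 lower in wild type. The median over the tested members was 0.38 in the knockout and 0.40 in wild type, and in the knockout median centring turned the surplus of higher regions round.

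Many of the calls between cell types in the stretch were shared by both genotypes. Of the regions higher in MZB, 140 were called in both genotypes, which is 80.5% of the knockout calls and 70.4% of the wild-type calls, and of the lower ones 18 were (72% and 58.1%). These shares were taken under the scaling used here. The same shares over all tested regions are not given, so nothing is read from their size. The interaction, which asks whether the knockout effect differs between the cell types, called 0 regions of the stretch with limma, edgeR and DESeq2, beside 0.00111% of all tested regions higher and 0% lower. At an unadjusted limma p under 0.05 it held 42 of the 551, beside 5585 of all 89782 tested regions, and nothing is read from these counts. A region 147386 bp from Setbp1 (79257830 to 79258252), singled out after its values were seen, was called in opposite directions. It had 19.4, 18.6 and 20.98 rppm in knockout MZB, against 13.9, 15.5 and 15.3 rppm in knockout FoB (log2 difference 0.39 ± 0.15, limma adjusted p = 0.0482), and 9.18, 10.1 and 8.396 rppm in wild-type MZB, against 15.1, 10.99 and 12.7 rppm in wild-type FoB (-0.46 ± 0.15, limma adjusted p = 0.0196). The interaction was not called there (limma adjusted p = 0.509). As the region was picked by its values, its p-values are a description only.

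**Figure D5:**
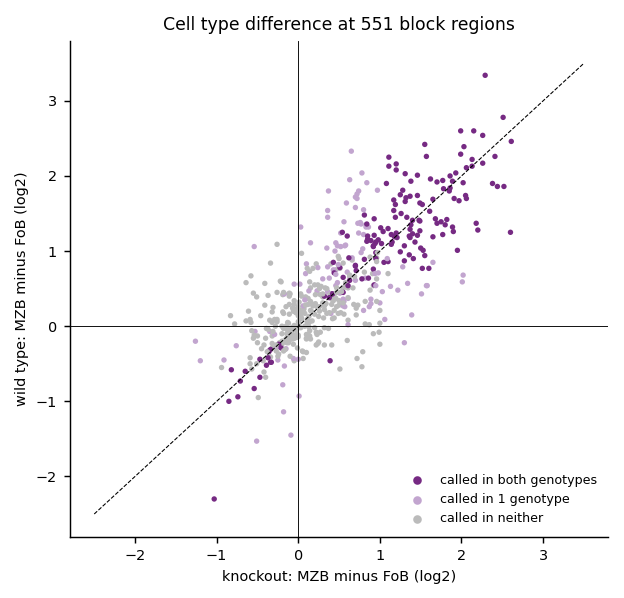
Log2 difference between MZB and FoB at the 551 tested regions in knockout libraries (x axis) and wild-type libraries (y axis), with a dashed line of equality. Dark points were called in both genotypes (140 higher and 18 lower in MZB, and 1 in opposite directions), pale purple points in 1 genotype and grey points in neither.

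In wild type the largest differences in favour of MZB lay at Rttn, Zadh2, Zbtb7c, Zfp236 and Ctdp1. A region 43842 bp from Ctdp1, which encodes a phosphatase of the RNA polymerase II tail, had 20.8, 22.4 and 22.5 rppm in knockout MZB, against 2.897, 5.15 and 4.83 rppm in knockout FoB, and 22.4, 21.8 and 28.6 rppm in wild-type MZB, against 3.83, 3.76 and 3.58 rppm in wild-type FoB. The log2 difference was 2.26 ± 0.19 in the knockout and 2.54 ± 0.19 in wild type (limma adjusted p = 8.7e-12 and 4.06e-13). Near Zadh2, 34073 bp and 41099 bp away, a pair of regions had log2 differences of 2.61 ± 0.22 and 2.51 ± 0.31 in the knockout and 2.46 ± 0.22 and 2.78 ± 0.31 in wild type. Within Zbtb7c, a BTB zinc finger gene, a region (75837685 to 75838020) had 10.3, 10.1 and 7.98 rppm in knockout MZB, against 1.24, 1.44 and 1.02 rppm in knockout FoB (log2 difference 2.52 ± 0.25). Zbtb7c as a whole had 11 of 14 tested regions higher in MZB in each genotype. Ctif, which encodes a translation factor of the cap-binding complex, had 16 of 32 in the knockout and 19 of 32 in wild type. Over the stretch 31.6% were higher in MZB in the knockout and 36.1% in wild type, and over all tested regions 23.2% and 24.2%. Ctif holds none of the regions named by rule, and the counts of both genes were taken under the scaling used here.

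Another Zbtb7c region (75917678 to 75918144) and regions 82551 bp and 89847 bp from Zfp236 followed the same direction. At the Zfp236 region farther away the levels were 10.5, 12.6 and 11.8 rppm in knockout MZB, against 1.86, 3.296 and 1.78 rppm in knockout FoB, and 13.5, 13.8 and 13.99 rppm in wild-type MZB, against 1.37, 2.12 and 2.15 rppm in wild-type FoB. The nearer one had a log2 difference of 2.60 ± 0.40 in the knockout and 1.25 ± 0.40 in wild type, where its call was lost without wild-type MZB 1 (limma adjusted p = 0.111) or wild-type FoB 1 (0.0528). At the Rttn region the cell type difference was 2.29 ± 0.35 in the knockout and 3.34 ± 0.35 in wild type, with 0.621, 0.206 and 0.763 rppm in knockout FoB and 1.095, 0.771 and 2.39 rppm in wild-type FoB.

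Of the 30 tested regions of Nfatc1 11 were higher and 2 lower in MZB in each genotype. The share that was higher is near that of the stretch, 31.6% in the knockout and 36.1% in wild type, beside 23.2% and 24.2% of all tested regions. The region 43966 bp away stood out with 24.96, 21.8 and 22.5 rppm in knockout MZB, against 9.73, 8.03 and 10.7 rppm in knockout FoB (log2 difference 1.25 ± 0.17, limma adjusted p = 2.31e-07), and with 22.4, 19.1 and 16.5 rppm in wild-type MZB, against 4.93, 6.27 and 5.01 rppm in wild-type FoB (1.75 ± 0.17, limma adjusted p = 1.55e-10). The Slc66a2 and nearest Nfatc1 regions that were lower in knockouts did not pass the test between cell types in either genotype. The Atp9b region was higher in MZB, by 0.85 ± 0.28 in the knockout and 1.16 ± 0.28 in wild type (limma adjusted p = 0.0189 and 0.00133), and its knockout call was lost without knockout MZB 1 (0.183), knockout MZB 3 (0.0785) or knockout FoB 2 (0.202).

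The 25 and 31 regions that were lower in MZB than in FoB in the knockout and in wild type are counts under the scaling used here, and were 112 and 95 with median centring. In wild type the largest such difference lay at the Tshz1 region 144994 bp away, with a log2 difference of -1.03 ± 0.18 in the knockout and -2.30 ± 0.18 in wild type (limma adjusted p = 2.23e-05 and 1.38e-12). Its neighbour 140413 bp from Tshz1 had -0.85 ± 0.16 and -1.0 ± 0.16. A strongly open region that was lower in MZB lay within Mbp (82525737 to 82526542), with 51.3, 51.1 and 62.1 rppm in knockout MZB, against 87.5, 94.8 and 91.5 rppm in knockout FoB, and 46.96, 48.4 and 48.5 rppm in wild-type MZB, against 99.9, 86.7 and 90.7 rppm in wild-type FoB. Its log2 difference was -0.74 ± 0.09 in the knockout and -0.94 ± 0.09 in wild type, and it was not called between genotypes. Within Smad7, a region was lower in knockout MZB than in knockout FoB (log2 difference -0.91 ± 0.26, limma adjusted p = 0.00637), a call lost without knockout FoB 2 (0.0504), and it was not called in wild type (-0.45 ± 0.26).

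Weaker regions completed the list. Within Kcng2, a potassium channel gene, 3 reads in knockout MZB stood against 19 in knockout FoB (ratio 0.198, 95% counting interval 0.0376 to 0.674), a call lost without knockout FoB 3 (limma adjusted p = 0.141). Within Loxhd1, a gene of hair cell function, 3 reads in wild-type MZB stood against 32 in wild-type FoB (ratio 0.16, 0.0313 to 0.511). At a region 191905 bp from Fbxo15, 2 reads in wild-type MZB stood against 23 in wild-type FoB (ratio 0.148, 0.0169 to 0.6). At the Gm17266 region from 84825751 to 84826117 the counts were 3 and 29 reads in wild-type MZB and FoB, and the call was lost without wild-type MZB 3 (limma adjusted p = 0.108) or wild-type FoB 2 (0.166).

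At the 75 Mb edge, which was set by position and not by a value, the nearest regions on both sides were compared. Just inside it, the region within Rpl17, a ribosomal protein gene, had 40.1, 41.01 and 43.2 rppm in knockout MZB, against 36.98, 42 and 39.5 rppm in wild-type MZB, and 40.97, 42.02 and 40.9 rppm in knockout FoB, against 43.8, 41.9 and 44.9 rppm in wild-type FoB. The other 5 regions nearest inside, in BC031181 and the Golgi gene Dym, had log2 fold changes from -0.05 to 0.64 in MZB and from -0.15 to 0.35 in FoB. The 6 nearest outside, at the lipase gene Lipg and at Rpl17, had values from -0.25 to 0.33 in MZB and from -0.19 to 0.15 in FoB. None of the 12 was called between genotypes.

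In build, the members resembled other regions, but they lay farther from gene ends. Their median width was 354.5 bp and they covered 235058 bp, and the median of their mean levels was 3.7 rppm. Of the 594, 349 (58.8%) lay in a gene body, against 57.3% of regions elsewhere, and 61 (10.3%) lay within 1 kb of a gene end, against 16.7% elsewhere and 13% on the rest of chromosome 18. Those outside genes lay a median of 53381 bp from the nearest gene, against 26696.5 bp elsewhere. The stretch holds 56 protein-coding genes in the RefSeq table, and 52 genes were assigned at least 1 member. Of the 48 called regions 22 lay in a gene body and 4 within 1 kb of a gene end. Their median width was 528 bp and their median level 11 rppm, above those of all members, and strong regions are easier to call.

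Marker genes of further cell types were examined by summed level. Of the T cell genes Cd3e, Cd3d, Cd4 and Cd8a 2 of 4 had a tested region, 3 regions in all, with sums of 44.78 to 53.63 rppm in knockout MZB, against 42.64 to 48.12 rppm in wild-type MZB, and 0 called. Myeloid genes had 1 of 27 regions higher in knockout MZB (sums of 248.2 to 273.2 rppm, against 220.2 to 231.7 rppm in wild-type MZB), and NK cell genes had 0 of 15 called (300.3 to 330.5 rppm in knockout MZB, against 281.7 to 290.3 rppm in wild-type MZB). In FoB the T cell sums were 43.66 to 48.4 rppm in the knockout, against 36.41 to 43.93 rppm in wild type. The myeloid sums there were 203.8 to 213.8 against 207 to 213.8 rppm, and the NK cell sums 355.3 to 383.2 against 336 to 373.9 rppm. Germinal centre genes had 1 of 11 higher in each cell type. They summed to 155.5 to 177.9 rppm in knockout MZB, against 160 to 166.4 rppm in wild-type MZB. In FoB they summed to 171 to 179.4 rppm in the knockout, against 151.4 to 166.6 rppm in wild type. The genotypes did not overlap there, nor did they in MZB for the myeloid, NK cell and immature B cell sums. Nothing is read from this. B lineage genes had 1 of 95 higher in knockout MZB and 0 called in FoB. Over all tested regions 0.502% were called higher in knockout MZB and 0.32% in knockout FoB. Regions of the immature B cell genes Cd93 and Rag1 summed to between 124.3 and 141.3 rppm in knockout MZB, against 95.81 to 107 rppm in wild-type MZB, with 1 of 15 called higher. In FoB they summed to between 172.8 and 194.1 rppm in the knockout, against 166.5 to 181 rppm in wild type. Their part in the values of the stretch was not tested.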

How the data were processed

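There were 12 ATAC-seq libraries. The deposited table gives, for each of 94161 regions, a value per library in RPM, here written rppm, which the authors scaled to the reads in all regions of that library, per the file headers and the values. Bowtie 1.1.1, MACS2 and mm10 are named in the submitters' processing notes, and how the peaks of the libraries were merged is stated in none of the sources used here. All values (100%) were whole multiples of 1 read within 0.01 read, which gave read counts of 3169966 to 10375328 per library, and intervals and floors cover counting error only. Chi-square per degree of freedom between libraries of a group was 1.09 to 1.78, above sampling noise.

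The 89782 regions that reached 1 rppm in 3 or more libraries were fitted as log2(rppm + 0.5) with limma 3.58.1 (R 4.3.3) on 4 group means, with a trended prior, two-sided tests and Benjamini-Hochberg adjustment over all tested regions at 0.05. Fold changes are on that scale, which understates the change of weak regions. The pipeline was checked on simulated data. Count tests on the recovered reads were alternatives: edgeR 4.0.16 called 20 members higher and 21 lower in knockout MZB and 20 and 9 in knockout FoB, and DESeq2 1.42.0 called 9 and 5, and 9 and 2. Other alternatives were pseudocounts, filters, scalings, fits to the compared groups, robust shrinkage, a replicate block and fits without each library.

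A region was named by the RefSeq protein-coding gene that overlaps it or lies nearest, and positions are those of the deposited table on mm10. Regions named in the text are called regions at Slc66a2, Atp9b, Nfatc1 and Tshz1 (at most 3 a gene), the 8 highest and 8 lowest called in each knockout contrast, the 6 highest and 6 lowest called between cell types in wild type and the 4 and 4 in the knockout, the 6 with the widest spread among the knockout libraries of each cell type at a mean of at least 5 rppm, and the 6 nearest each side of 75 Mb. The members, gene groups and marker lists were chosen with earlier results of these data known.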

Additional observations from a re-analysis of the deposited data

How the results depend on the processing

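Depth limits weak regions, since 3 reads correspond to 0.289 to 0.946 rppm. The causes of the changes below were not tested. Calls in knockout against wild type kept their direction in every setting, but their number varied. DESeq2 called 9 regions higher and 5 lower in knockout MZB and 9 higher and 2 lower in knockout FoB, against 22 and 19 and 17 and 7. A pseudocount of 0.1 gave 9 lower in MZB, and a fit to the compared groups alone gave 4 lower in FoB. Without each library in turn the counts were 14 to 23 higher and 7 to 23 lower in MZB and 11 to 21 and 2 to 10 in FoB. Between MZB and FoB, fits without a library gave 140 to 176 higher and 18 to 26 lower in the knockout and 171 to 202 and 22 to 32 in wild type. A filter of 5 rppm gave 114 higher in the knockout and 127 in wild type, quantile normalisation 112 and 132, and DESeq2 108 and 130. Median centring gave 102 higher and 112 lower in the knockout and 121 and 95 in wild type, and edgeR gave 52 and 60 lower. Calls between cell types changed direction 5 times in the knockout (199 calls) and 2 times in wild type (230 calls), counted over all regions and settings together. The interaction had 1 call under quantile normalisation. A fit with the replicate block gave 22 higher and 21 lower in knockout MZB, 18 and 10 in knockout FoB, 174 and 24 between cell types in the knockout and 198 and 31 in wild type. Libraries of the same number did not deviate together over all tested regions (r from -0.093 to 0.134), so the numbers are taken only as names. Within the stretch the knockout MZB and FoB libraries numbered 1, 2 and 3 had r of 0.221, 0.250 and 0.010. Between knockout libraries of different number r ran from -0.292 to 0.075 there. Whether libraries of the same number belong together was not tested.

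The shares beyond 2-fold moved with the pseudocount. With 0.1 they were 19.4%, 15.4% and 19.2% in knockout MZB 1, 2 and 3 and 7.99%, 8.53% and 7.8% in wild-type MZB, and 23.2%, 14.7% and 22.3% in knockout FoB and 13.8%, 10.7% and 13.6% in wild-type FoB. With 2 they were 6.72%, 2.9% and 4.9% in knockout MZB and 0%, 0.181% and 0.181% in wild-type MZB, and 4.72%, 1.09% and 3.09% in knockout FoB and 0.181%, 0.726% and 0% in wild-type FoB. With a filter of 5 rppm they were 12.5%, 5.9% and 9.18% in knockout MZB, 0.328%, 0.984% and 0% in wild-type MZB and 2.3% in wild-type FoB 1 and 3. Quantile normalisation gave 9.07% in knockout MZB 2, and no filter 5.39% and 5.05% in wild-type MZB 2 and 3. Without a wild-type library the wild-type shares were 5.44% to 6.9% in MZB and in FoB 9.26% to 9.8%, 4.72% to 9.26% and 4.72% to 9.8% in wild-type 1, 2 and 3. The correlations of knockout MZB with FoB libraries under a filter of 5 rppm were 0.768, 0.640 and 0.671 for MZB 1 with FoB 1, 2 and 3, 0.593, 0.591 and 0.564 for MZB 2, and 0.718, 0.657 and 0.661 for MZB 3. With a pseudocount of 2 they were 0.482 for MZB 1 with FoB 2, 0.415 for MZB 2 with FoB 3 and 0.523 for MZB 3 with FoB 3. Of the values of named regions under the alternatives, 1939 kept their side of the threshold and direction and 205 kept the direction and missed the threshold. These counts pool knockout and cell type calls, and include fits without a library outside the compared groups. Of the knockout calls alone, 16 of 41 in MZB and 13 of 24 in FoB were kept whichever library was left out.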
